A study of Mus musculus with 7 samples.

Results

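The small RNAs bound by the K566A form of mouse Ago2 were set against those bound by wild-type Ago2, with 1 library a side. All 1078 rows of the count table entered the comparison, and each mature miRNA was counted by its highest locus, which gave 959 names. Names whose counts could not be told apart were merged, leaving 950 miRNAs, of which 798 had a count in either library. Ratios were read for the 337 miRNAs that averaged at least 10 counts per 1000000 (CPM) over the 6 Ago2 libraries, and arm use was read for 402 of 493 hairpins. Each library came from mouse embryonic stem cells in an Ago-null background, from which a Flag-tagged Ago2 and its small RNAs were collected with an anti-Flag antibody. The groups used here were the mutants K566A, Q548A, R792A_C793A, GKT_GKGT and PGKTP_AAAAA, an empty control of the same cells, and wild type (WT). As each genotype is a single library, nothing below could be checked against replicates, and intervals cover counting error only. Reads carried no molecular identifiers, so repeated reads of the same molecule could not be told from separate molecules. How many clones or cultures stand behind a library is not stated in the labels, and the genotypes could not be checked from miRNA counts.

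Argonaute proteins take up a small-RNA duplex, keep 1 strand as the guide and discard the other. The guide's 5' phosphate and its first base sit in a pocket of the MID domain, where the lysine changed in K566A is among the residues that contact the phosphate, and bases 2 to 8, the seed, then pair with target mRNAs. A hairpin precursor can give a guide from either side, the 5p or the 3p arm, and the share of each arm in Argonaute is a common measure of strand choice. In mouse embryonic stem cells most miRNA comes from the miR-290 cluster.

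The total of miRNA counts was 14914048 in K566A and 94842507 in WT, a library 6.36 times larger, and ranged from 24921544 to 94700428 in the other 4 mutants. An arm or miRNA at 0 could still hold up to 3 counts, or 0.201 CPM in K566A and 0.0316 CPM in WT. The empty control held 33461 counts, and for the median tested miRNA its raw count was 0.104% of the K566A count. It exceeded 1% of the K566A count for 38 tested miRNAs, of which 33 were called lower in K566A, and 10% for 3 (miR-410-3p, miR-3102-5p.2-5p and miR-3062-5p), all called lower. The share of those low values that comes from material recovered without Ago2 was not tested. No library of total cellular small RNA was analysed here, so less of a miRNA in the cells and less of it on Ago2 cannot be told apart.

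The mature sequences on which the results turn are shown 5' to 3' with the seed in capitals (RefSeq, GRCm38.p6). First come the abundant miRNAs of K566A, together with miR-302b-3p, whose seed AAGUGCU it shares with miR-294-3p.
miR-292-5p: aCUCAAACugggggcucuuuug
miR-293-3p: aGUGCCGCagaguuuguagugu
miR-294-3p: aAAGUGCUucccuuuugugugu
miR-302b-3p: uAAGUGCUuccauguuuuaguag
miR-127-3p: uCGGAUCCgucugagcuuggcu
miR-148a-3p: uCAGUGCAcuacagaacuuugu
miR-25-3p: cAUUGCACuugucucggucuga
miR-423-5p: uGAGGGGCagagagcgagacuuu

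The next set holds miRNAs with the largest rises relative to WT, shown to compare their 5' ends and seeds. Within this set no seed is shared, while first bases are. Left out of it are miR-302b-3p, printed above, and miR-302a-3p, for which no sequence was matched.
miR-92a-2-5p: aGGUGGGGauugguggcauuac
miR-365-2-5p: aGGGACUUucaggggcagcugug
miR-30c-1-3p: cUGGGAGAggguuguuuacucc
miR-219-1-3p: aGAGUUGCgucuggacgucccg
miR-125a-3p: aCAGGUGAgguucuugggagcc
miR-195-3p: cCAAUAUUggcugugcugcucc
miR-126-3p: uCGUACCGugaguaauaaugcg
miR-21-5p: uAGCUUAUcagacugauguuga

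The last set holds miRNAs with the largest falls, shown for their base composition and 5' ends.
miR-666-5p: aGCGGGCAcagcugugagagcc
miR-323-3p: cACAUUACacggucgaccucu
miR-667-3p: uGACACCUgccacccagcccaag
miR-149-5p: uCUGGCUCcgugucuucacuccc
miR-501-3p: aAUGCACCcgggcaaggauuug
miR-744-5p: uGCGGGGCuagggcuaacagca
miR-770-3p: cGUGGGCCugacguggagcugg
miR-382-5p: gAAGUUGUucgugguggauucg
miR-298-5p: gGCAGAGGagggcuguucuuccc

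The dominant miRNA of these cells, miR-292-5p (chr7:3219201-3219222, mm9), took a smaller share of K566A, although it was still the most abundant there. It took 21.7% of counts in K566A, against 65.3% (Q548A), 57.3% (R792A_C793A), 70.5% (GKT_GKGT) and 69.5% (PGKTP_AAAAA) in the other mutants and 63.7% in WT. K566A stood alone below the other 5 Ago2 libraries, whose shares lay within a narrow band that also holds the empty control at 65.6%. In CPM the ratio of K566A to WT was 0.341 (log2 -1.55). The other miRNAs together made up 78.3% of counts in K566A and 36.3% in WT, a ratio of 2.16 (log2 1.11), so a miRNA that kept its place among them shows about this rise in CPM. Counts were spread over more miRNAs, with 34 needed to reach 90% of the total in K566A and 21 in WT, and the top 10 held 74.2% in K566A and 82.6% in WT.

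Within the miR-290 cluster, which supplies cell-cycle-promoting miRNAs to embryonic stem cells, 4 of 6 tested 3p arms were called higher and 4 of 7 tested 5p arms lower in K566A. The main 3p product of miR-293 had 183880 CPM in K566A, 51000 in R792A_C793A, 54259 in Q548A, 34581 in GKT_GKGT, 47486 in PGKTP_AAAAA and 53722 in WT (log2 ratio of K566A to WT 1.78). The 3p product of miR-294 had 92682 CPM in K566A, 32617 in R792A_C793A, 20742 in Q548A, 8036 in GKT_GKGT, 15297 in PGKTP_AAAAA and 19962 in WT (2.21). For both, K566A lay far above all 5 other libraries. miR-293-5p had 2476 CPM in K566A, against 7179, 7371, 6739, 3371 and 12283 CPM in Q548A, R792A_C793A, GKT_GKGT, PGKTP_AAAAA and WT (-2.31). The log2 ratio was -1.26 for miR-291a-5p, -1.17 for miR-294-5p, 0.04 for miR-290-5p and 0.18 for miR-291b-5p. Among 3p arms it was 2.39 for miR-290-3p, 1.27 for miR-295-3p, 0.97 for miR-292-3p and 0.76 for miR-291a-3p. Of 13 tested cluster members 4 were called higher and 4 lower (background 47.5% called higher and 19.6% lower over all tested miRNAs, as defined below). The share called higher was thus below that background. With median-of-ratios scaling 2 were higher, both 3p arms, and 4 lower, all 5p arms.

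Arm use gave the same cluster without any effect of library size, since a ratio between arms of 1 hairpin does not depend on the total. In this cluster the 5p share of miR-292 was 75.6% in K566A, against 96.7% in Q548A and 94.7% in WT. That of miR-291a was 16.2% in K566A, 23.4% in R792A_C793A, 39.996% in Q548A, 93.5% in GKT_GKGT, 70.3% in PGKTP_AAAAA and 43.8% in WT, so R792A_C793A came close to K566A. That of miR-293 was 1.33% in K566A, 11.7% in Q548A and 18.6% in WT. The log2 odds of 5p over 3p fell by 2.52 for miR-292, 2.02 for miR-291a, 4.09 for miR-293, 3.39 for miR-294, 2.34 for miR-290 and 1.27 for miR-295. All 6 were called, where 19.2% of all tested hairpins had a lower 5p share, and miR-291b, the other hairpin of the cluster, was not (-0.03, 95% interval -0.39 to 0.34). Set directly against R792A_C793A, K566A was not called at miR-291a (-0.66) or miR-295 (-0.96), and against Q548A it was not called at miR-295 (-0.44).

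Over all 337 tested miRNAs the log2 ratio of K566A to WT had a median of 0.91 with quartiles at -0.84 and 2.21. Calls required that the whole 95% interval of the ratio (exact conditional) be above 2 or below 0.5. By that rule 160 miRNAs (47.5%) were higher and 66 (19.6%) lower, 67.1% in all. Because of the shift that miR-292-5p leaves in CPM, groups are also placed against the median over all tested miRNAs. Median-of-ratios scaling, which removes that median, called 105 (31.2%) higher and 107 (31.8%) lower, so the balance of rises and falls is set by the scaling while the width of the spread is not. At the edge of the rule, miR-150-5p (1.05, interval 1.03 to 1.08) was just inside, and miR-669c-5p (0.999, 0.95 to 1.05), let-7e-5p (0.99) and miR-292-3p (0.97) were just outside. The Spearman correlation of the 2 libraries across tested miRNAs, which are not independent replicates, was 0.72.

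**Figure D1:**
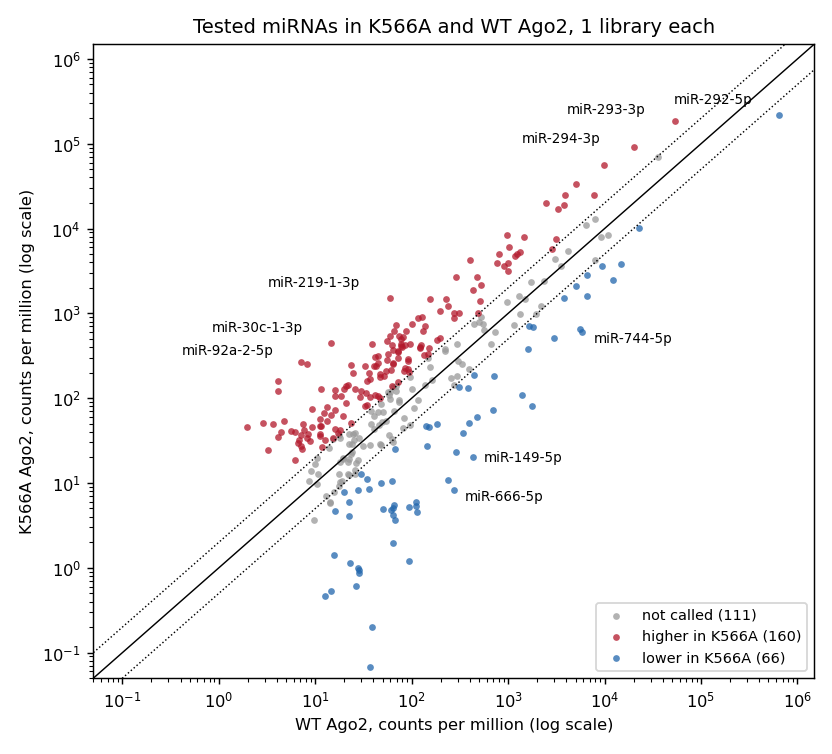
Each point is 1 of 337 tested miRNAs, with its CPM in K566A on the vertical and in WT on the horizontal axis, both logarithmic. The solid line marks equal CPM and the dotted lines 2-fold differences. Points called higher (160, red) lie along a band above the line, points called lower (66, blue) reach furthest from it, and miR-292-5p at the upper right is the 1 dominant miRNA below the line.

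The spread of ratios did not narrow for well-counted miRNAs. The interquartile range of the log2 ratio to WT was 3.06 in K566A among the 193 miRNAs with at least 100 but under 1000 counts in WT, and 3.01 among the 49 with at least 100000. Among the same 49 it was 1.04 in R792A_C793A, 0.52 in Q548A, 0.92 in GKT_GKGT and 1.46 in PGKTP_AAAAA. Those comparisons share the WT library. PGKTP_AAAAA, at 24921544 counts, is the Ago2 library closest in depth to K566A. K566A was the highest of the 6 Ago2 libraries at 175 of 337 miRNAs and the lowest at 61, and it exceeded the next library by over 2 times at 113. The next count was 57 highest places, in R792A_C793A, while PGKTP_AAAAA was most often lowest, at 129. With median-of-ratios scaling K566A was highest at 118 and lowest at 117, more than any other library in either direction. These 337 passed the filter on a mean that includes K566A itself, which favours miRNAs that are high there.

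**Figure D2:**
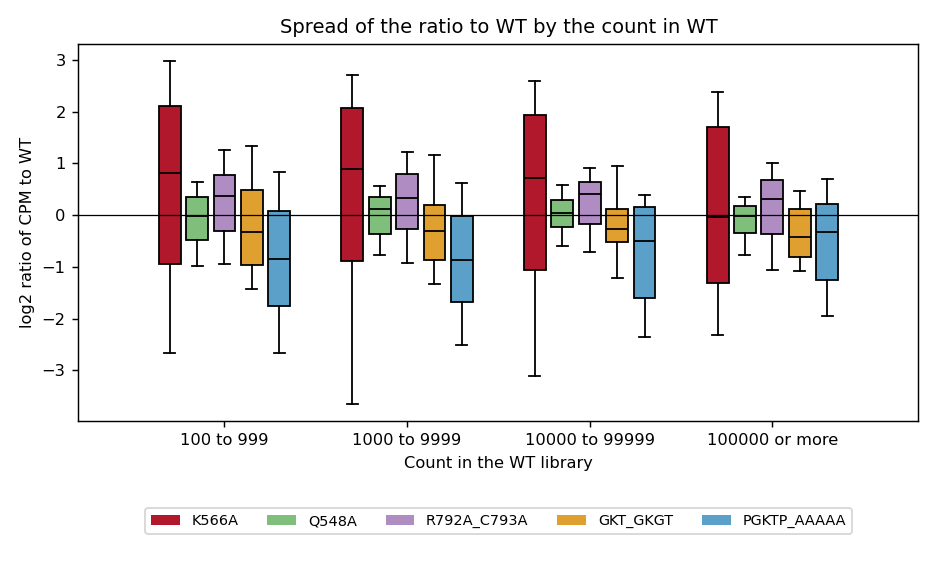
Boxes give the quartiles and median, and whiskers the 10th and 90th percentiles, of the log2 ratio to WT in each mutant, in 4 classes of WT count. The K566A boxes keep a height near 3 in every class, while those of Q548A narrow to 0.52.

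Among called miRNAs that averaged at least 100 CPM over K566A and WT, the largest rises in K566A were led by arms that are scarce in the other Ago2 libraries. Choosing by ratio under that minimum favours arms that are high in K566A and scarce in WT, and the first 3 reached it only through K566A. miR-92a-2-5p, the passenger side of miR-92a in the miR-106a-363 cluster on chromosome X (chrX:50095069-50095090, mm9), had 268 CPM in K566A, against 9.36 in R792A_C793A, 5.09 in Q548A, 6.404 in GKT_GKGT, 19.5 in PGKTP_AAAAA and 7.12 in WT. K566A was 37.6 times WT (log2 5.23, interval 5.12 to 5.35), and the opposite arm, miR-92a-3p, was at 2.03. miR-365-2-5p had 256 CPM in K566A, against 8.27, 18.5, 12.4, 10.1 and 8.23 CPM in Q548A, R792A_C793A, GKT_GKGT, PGKTP_AAAAA and WT (4.96), with miR-365-3p at 0.73. miR-30c-1-3p, from an intron of Nfyc, had 446 CPM in K566A, against 12.01, 18.4, 82.6, 25.2 and 14.6 CPM in the same order of libraries ending with WT (4.93), while its partner miR-30c-5p was at 0.79. In each of these 3, K566A lay above all other libraries and the partner arm changed much less.

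The other rises did not share a single pattern of arms. miR-219-1-3p, of a miRNA known from oligodendrocytes, had 1522 CPM in K566A, 123 in R792A_C793A, 79.2 in Q548A, 88.8 in GKT_GKGT, 77.2 in PGKTP_AAAAA and 60.1 in WT (4.66); its 5p partner, with 8 counts in K566A and 2 in WT, is too low to read. miR-302b-3p, of a cluster switched on as embryonic stem cells move towards the epiblast, had 4286 CPM in K566A, 610 in R792A_C793A, 782 in Q548A, 405 in GKT_GKGT, 336 in PGKTP_AAAAA and 403 in WT (3.41). K566A was at least 5 times every other library for both. miR-21-5p, a widespread miRNA of growing and differentiated cells that overlaps an exon of Vmp1, had 618 CPM in K566A and between 65.9 (WT) and 139 in the others (3.23). miR-126-3p, within Egfl7 and known from endothelium, had 1458 CPM in K566A and between 154.8 (WT) and 333 in the others (3.23). miR-195-3p stood less apart, with 722 CPM in K566A but 576 in GKT_GKGT, against 68.6 in WT (3.40). miR-125a-3p (3.52, with its 5p arm at -0.87) and miR-302a-3p (3.40) complete the 10 largest rises. All 10 stayed called under both other scalings, and the empty control held at most 18 counts of any of them.

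By the same minimum of 100 CPM, K566A was the lowest of the 6 Ago2 libraries for 9 of the 10 largest falls. These were chosen for a low ratio of K566A to WT, which favours the lowest place for K566A. miR-666-5p, of the imprinted Dlk1-Dio3 region (chr12:110955313-110955334, mm9), had 8.25 CPM in K566A, 140.5 in R792A_C793A, 118 in Q548A, 63.5 in GKT_GKGT, 12.6 in PGKTP_AAAAA and 273 in WT (log2 ratio of K566A to WT -5.05, interval -5.31 to -4.79). miR-323-3p, of the same region, had 80.0 CPM in K566A, 1111 in R792A_C793A, 1554 in Q548A, 2132 in GKT_GKGT, 251 in PGKTP_AAAAA and 1767 in WT (-4.47). PGKTP_AAAAA was the library next to K566A for both. miR-667-3p was the exception, with 10.9 CPM in K566A but 7.94 in PGKTP_AAAAA, against 237 in WT (-4.44). miR-149-5p, from an intron of Gpc1 on chromosome 1, had 20.2 CPM in K566A, 369 in R792A_C793A, 405 in Q548A, 327 in GKT_GKGT, 168 in PGKTP_AAAAA and 429.4 in WT (-4.41). Its fall thus stood apart from all 5 other libraries, although the raw count of the empty control, 18, was 6.0% of the 302 counts in K566A.

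Among the more abundant falls, miR-744-5p, from an intron of Map2k4, had 606 CPM in K566A, 4559 in R792A_C793A, 5107 in Q548A, 3220 in GKT_GKGT, 2304 in PGKTP_AAAAA and 5891 in WT (-3.28). miR-298-5p had 649 CPM in K566A and between 1452 and 5572 (WT) in the others (-3.10). K566A was lowest for both. miR-328-3p (-3.68), miR-501-3p from an intron of Clcn5 (-3.62), miR-770-3p within Meg3 (-3.27) and miR-382-5p within Mirg (-3.12) complete the 10. Of these 10, 5 come from the Dlk1-Dio3 region (miR-666-5p, miR-323-3p, miR-667-3p, miR-770-3p and miR-382-5p), which supplied 29 of the 171 miRNAs with that mean and 14 of the 30 of them called lower.

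**Figure D3:**
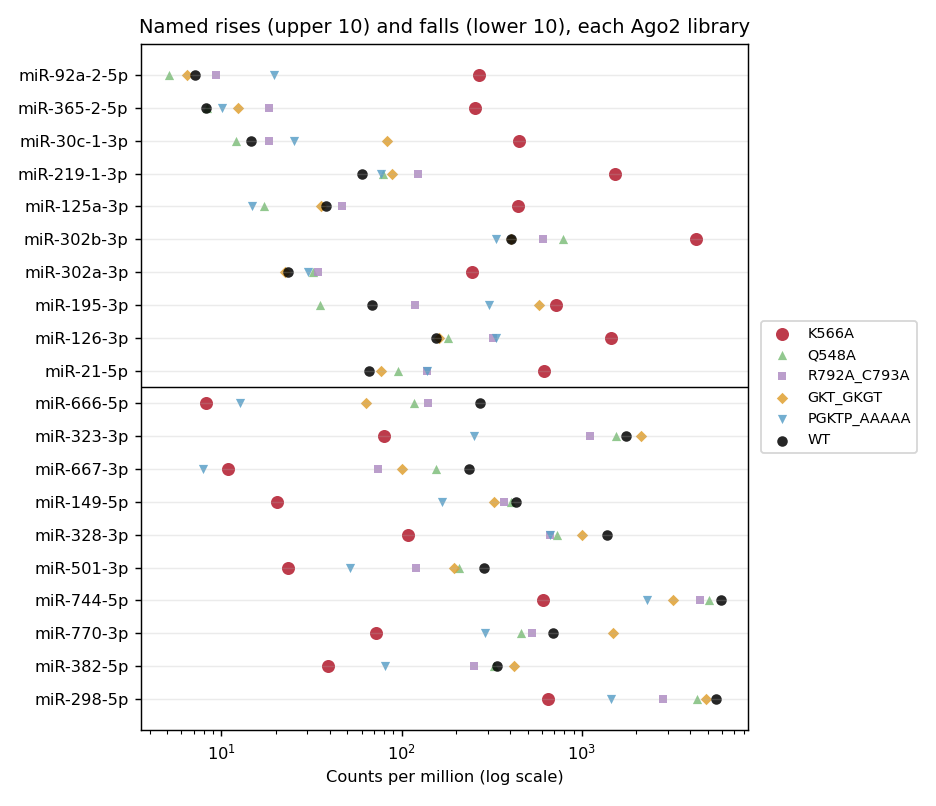
CPM on a logarithmic axis for the 10 largest rises (upper rows) and 10 largest falls (lower rows), 1 symbol per Ago2 library, with K566A in red and WT in black. The red symbol is the rightmost in all 10 upper rows and the leftmost in 9 of 10 lower rows, the exception being miR-667-3p. Rows were chosen by the ratio of K566A to WT, which favours these places of the red symbol.

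Abundant miRNAs outside the miR-290 cluster differed in both directions. Of the 40 with at least 100000 counts in WT, 12 were called higher and 14 lower, or 10 and 21 with median-of-ratios scaling. Their median log2 ratio was -0.29. Among all tested miRNAs 47.5% were called higher and 19.6% lower, or 31.2% and 31.8% with that scaling. The next 4 are among the 10 most abundant of K566A, a choice that favours rises. miR-127-3p had 56017 CPM in K566A and between 5330 and 12762 in the others, with 9774 in WT (2.52). miR-148a-3p had 33333 CPM in K566A and between 3315 and 6272 in the others, with 4995 in WT (2.74). miR-128-3p, known from neurons, had 24578 CPM in K566A and 3882 in WT (2.66), and miR-25-3p, within Mcm7, had 19996 CPM in K566A and 2469 in WT (3.02). In each of these 4 K566A lay above all 5 other libraries. Falls among the 10 most abundant of WT were seen for miR-433-3p (10269 CPM in K566A and 22567 in WT, -1.14), miR-99b-5p (3780 and 14866 CPM in K566A and WT, -1.98) and miR-543-3p (3605 and 9414 CPM in K566A and WT, -1.38). K566A was the lowest of the 6 Ago2 libraries only for miR-99b-5p. PGKTP_AAAAA lay below it for miR-433-3p (9455 CPM) and miR-543-3p (1795 CPM). miR-183-5p showed no call at 8449 CPM in K566A and 10959 CPM in WT (-0.38), and was called lower relative to the median of all miRNAs.

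Read by seed, which sets a miRNA's targets, the total of the seed AAGUGCU, shared by miR-294-3p, miR-291a-3p, miR-295-3p, miR-302b-3p and miR-302d-3p, was 116141 CPM in K566A and 30047 CPM in WT (log2 of the ratio of sums 1.95). The seed CUCAAAC of miR-292-5p, miR-290-5p and miR-293-5p summed to 223202 CPM in K566A and 652612 CPM in WT (-1.55). The larger sum therefore lay with different libraries for these 2 seeds, both found in the miR-290 cluster. The AAGUGCU sum also holds miR-302b-3p and miR-302d-3p, which belong to the miR-302 cluster. All seed sums cover only tested miRNAs with a matched sequence. The seed CAGUGCA of the miR-148/152 family summed to 34403 CPM in K566A and 5284 CPM in WT (2.70), and AAAGUGC of the miR-17 family to 15056 CPM in K566A and 3150 CPM in WT (2.26). The let-7 seed GAGGUAG summed to 2072 CPM in K566A and 527 CPM in WT (1.98). Of its 8 members 7 were called higher, where 47.5% of all tested miRNAs were.

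The miR-17-92 cluster and its paralogs, which promote proliferation, were mostly higher. Of 24 tested members 16 were called higher and 1 lower, or 13 and 3 after median-of-ratios scaling. Their median log2 ratio stood 1.22 over that of the 337, of which 47.5% were called higher and 19.6% lower (31.2% and 31.8% after that scaling). miR-363-3p had 8033 CPM in K566A and 1466 CPM in WT (2.45), and miR-20a-5p had 6090 CPM in K566A and 1013 CPM in WT (2.59). The member called lower was miR-92b-3p, at 1516 CPM in K566A and 3767 CPM in WT (-1.31), although it shares the seed AUUGCAC with miR-25-3p and miR-92a-3p (2.03). All 3 tested members of the cluster of miR-302 and miR-367 were higher under each scaling, with miR-302d-3p at 2.89.

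The let-7 family, which rises as stem cells differentiate and restrains their programme, had 8 of 9 members called higher and 0 lower, or 4 and 0 after median-of-ratios scaling. Its median stood 1.02 over that of all tested miRNAs, of which 47.5% were called higher and 19.6% lower (31.2% and 31.8% after that scaling). let-7a-5p had 434 CPM in K566A and 95.5 CPM in WT (2.18), and let-7i-5p had 332 CPM in K566A and 56.7 CPM in WT (2.55). Members of this family differ by few bases, and no source used here says how reads that match several of them were counted. In the miR-15/16 family, whose members slow the cell cycle, 5 of 6 were higher and 0 lower (5 and 1 after median-of-ratios scaling). miR-16-5p was at 2.46, miR-497-5p at 2.68 and miR-15b-3p at -0.91. In the miR-30 family 7 of 10 were higher and 0 lower (5 and 1), with a median 0.82 over that of all; miR-30c-1-3p was at 4.93 and miR-30d-5p at -0.94.

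Closer to the median of all lay the miR-200 family of epithelial miRNAs, with 5 of 6 higher and 1 lower (1 and 1 with median-of-ratios scaling), and the cluster of miR-183, miR-96 and miR-182, with 3 of 5 higher and 0 lower (1 and 1). The shares over all tested miRNAs were 47.5% higher and 19.6% lower (31.2% and 31.8% with that scaling). miR-200c-3p was at 1.71 and miR-429-3p, the member called lower, at -1.43. The Sfmbt2 cluster, a rodent array of near-identical miRNAs in an intron of that gene, had 8 of 14 tested members higher and 0 lower (4 and 3), near the background of 47.5% called higher (31.2% after rescaling), with miR-467c-5p at 2.39 and miR-669a-5p at -1.23; its members cannot be told apart firmly by short reads. Of 65 listed names of this cluster only 14 passed the filter.

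The Dlk1-Dio3 cluster, a large imprinted array of miRNAs on chromosome 12 transcribed from the maternal allele, was split. Of 63 tested members 13 were called higher and 27 lower, or 11 and 33 after median-of-ratios scaling. Its median was 1.53 under that of the 337, of which 47.5% were called higher and 19.6% lower (31.2% and 31.8% after that scaling). Single members ranged over more than 11 log2 units, from miR-1197-3p with 3 counts in K566A and 3689 in WT (-7.60, interval -9.87 to -6.05) to miR-337-5p with 769 counts in K566A and 270 in WT (4.18). miR-410-3p had 18 counts in K566A and 8923 in WT (-6.28), and miR-487b-3p 29 in K566A and 6008 in WT (-5.03). miR-127-3p and miR-541-5p (1.70; not called after rescaling) were higher, and the summed level of the cluster was 125071 CPM in K566A and 87305 CPM in WT, although the median member was lower. Of 5 tested miRNAs that form without Drosha or Dicer, 0 were higher and 2 lower (0 and 4 after rescaling to the median). Their median was 1.56 under that of the 337. Both called lower are arms of 1 hairpin, miR-877. The mirtron arm miR-877-5p, from an intron of Abcf1, had 1 count in K566A and 3473 in WT (-9.09, interval -14.40 to -6.61), and miR-877-3p was at -2.39. The other 3, miR-320-3p (-0.64), miR-1981-5p (-0.44) and miR-1839-5p (0.27), were not called.

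**Figure D4:**
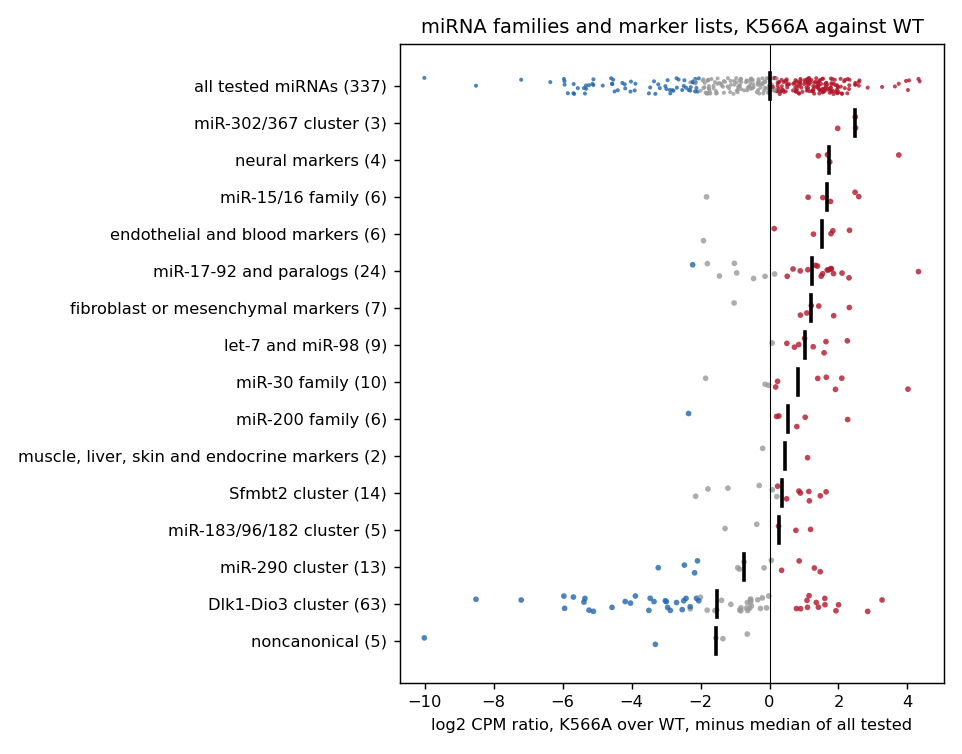
Each point is 1 tested miRNA, placed by its log2 ratio of CPM, K566A over WT, minus the median of all tested miRNAs (0.91), with black bars at list medians and red and blue points for members called higher and lower. Lists run from the miR-302 cluster (2.49) to the noncanonical miRNAs (-1.56), and the Dlk1-Dio3 row is the widest.

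Markers of other cell types were read as a check of the labelled cells. Their calls stand beside 47.5% higher and 19.6% lower over all tested miRNAs, or 31.2% and 31.8% with median-of-ratios scaling. Sums in CPM also hold the general shift, since miRNAs other than miR-292-5p together took 2.16 times their WT share in K566A. The miR-290 cluster, which defines mouse embryonic stem cells, made up 59.2% of counts in K566A and 77.8% in WT. Fibroblast or mesenchymal markers summed to 9098 CPM in K566A and 1966 CPM in WT, with 6 of 7 tested higher and 0 lower, and miR-143-3p (3968 CPM in K566A and 995 CPM in WT) and miR-22-3p (3893 CPM in K566A and 767 CPM in WT) gave most of it. Of their defining hairpin miR-145, the 5p arm had 2 counts in K566A and 1286 in WT, while the 3p arm had 1811 in K566A and 393 in WT (4.87). miR-214-3p had 0 counts in K566A and 2 in WT. Neural markers summed to 26544 CPM in K566A and 4031 CPM in WT, with 4 of 4 tested higher, of 8 listed. miR-128-3p gave most of this sum, and miR-124-3p had 79.5 CPM in K566A and 13.1 CPM in WT (2.60). Among those not tested, miR-137-3p had 0 counts in K566A and 1 in WT. miR-138-5p, also not tested, had 28 counts in K566A, 430 in Q548A and 307 in R792A_C793A. Those 2 libraries are 6.35 and 3.76 times larger, so its CPM was lower in K566A than in both. Endothelial and blood markers summed to 2682 CPM in K566A and 698 CPM in WT, with 5 of 6 higher and 0 lower, and miR-223-3p, of myeloid cells, was at 0 in both. The muscle, liver, skin and endocrine markers summed to 454 CPM in K566A and 243 CPM in WT, with 1 of 2 higher. With median-of-ratios scaling 5 fibroblast, 4 neural and 4 endothelial or blood markers were higher, 1 endothelial marker was lower, and none of the last list was called. In the other 4 mutants miR-128-3p lay between 3620 and 7434 CPM. Whether the cells behind the K566A library differed in state from those of WT was not tested.

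Among the 288 tested miRNAs with a RefSeq sequence (85.5%), the ratio of K566A to WT moved with the base at the 5' end. The 26 that begin with G had a median 1.65 below that of all with a sequence, with 5 called higher and 9 lower, and 0 higher and 17 lower with median-of-ratios scaling. The 130 that begin with U had a median 0.69 above it, with 74 higher and 28 lower (51 and 37). The 77 A-first miRNAs lay at -0.48 (28 higher and 15 lower) and the 55 C-first at 0.04 (27 and 11). A and C thus lay between U and G. All 288 together had 134 called higher and 63 lower, or 90 and 97 with median-of-ratios scaling. Abundance moved with base composition at the same time. The median log2 ratio was 1.66 at a GC content up to 40%, 1.41 above 40 to 50%, 0.32 above 50 to 60% and -0.81 above 60%. In the last class U-first miRNAs, at -1.57 (19 miRNAs), were also low, and G-first ones, at -3.66 (6 miRNAs), lower still, whereas A-first ones were at 0.51 (12 miRNAs). Position 1 had the widest spread of medians between bases (2.35) of the first 20 positions, followed by position 3 (2.06) and position 14 (1.88). The spread at position 1 runs from U to G, and its G class, with 26 miRNAs, is the smallest at any of these positions. The part of GC content in the order by first base was not tested beyond these classes.

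Arm use differed in both directions. The same rule was put to the 5p-to-3p odds ratio of each hairpin, K566A over WT. Of 402 tested hairpins 75 (18.7%) had a higher and 77 (19.2%) a lower 5p share. The median change in log2(5p/3p) was -0.04 with quartiles at -1.67 and 1.75, and the median size of the change, whichever its sign, was 1.69. The major arm differed between the libraries at 45 hairpins. An arm stood at 0 in 110 hairpins in K566A and in 49 in WT, whose library was 6.36 times larger. Where the major arm was set from the other 4 mutants, the minor arm gained at 80 hairpins and lost at 72, and log2(minor/major) differed by a median of 0.37, or 0.11 over the 292 hairpins with at least 100 counts in each library. Of the 152 calls (37.8% of hairpins), 89 came with only the gaining arm called higher in CPM and 33 with only the losing arm called lower. Another 21 came with both and 9 with neither. Calls in CPM carry the shift that miR-292-5p leaves, with 47.5% of all tested miRNAs called higher and 19.6% lower. The same split with median-of-ratios scaling was not computed.

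**Figure D5:**
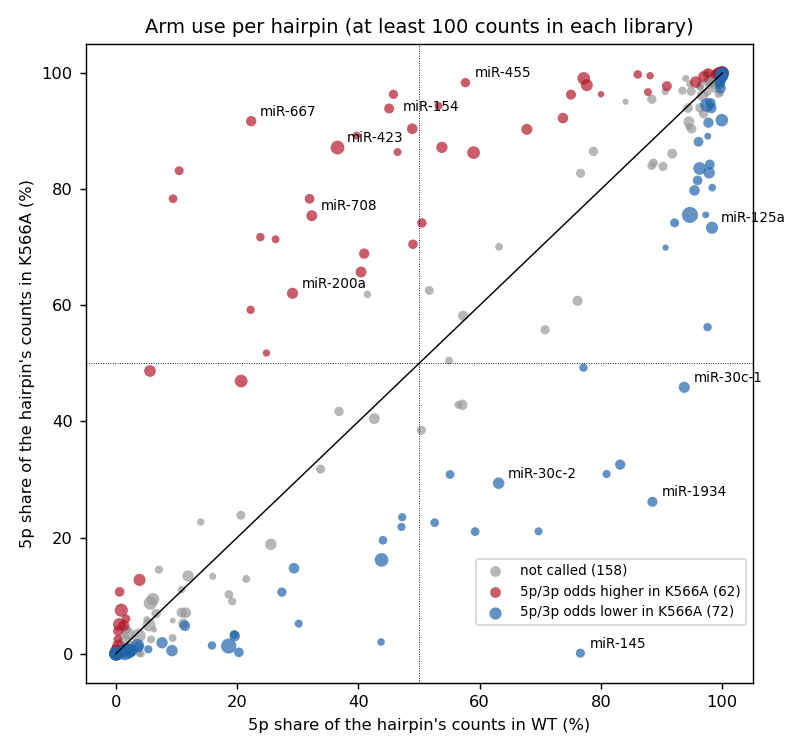
The 5p share of each hairpin's counts, in K566A on the vertical and in WT on the horizontal axis, for the 292 hairpins with at least 100 counts in each library, with larger points for more counts. Calls fall on both sides of the diagonal (62 higher in red, 72 lower in blue), and points in the upper left and lower right corners are hairpins whose major arm differs, such as miR-423 (87.2% in K566A, 36.6% in WT).

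The most abundant hairpin whose major arm differed was miR-423, in an intron of Nsrp1, whose arms are these.
miR-423-5p: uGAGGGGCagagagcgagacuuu
miR-423-3p: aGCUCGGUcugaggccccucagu
Its 5p share was 87.2% in K566A, 81.6% in R792A_C793A, 69.5% in Q548A, 58.1% in GKT_GKGT, 63.5% in PGKTP_AAAAA and 36.6% in WT (log2 odds ratio of K566A to WT 3.56, interval 3.54 to 3.57). WT stood below all 5 mutants here, and K566A above the other 4. miR-18a of the miR-17-92 cluster showed the same order of groups, with a 5p share of 90.4% in K566A, 68.8 to 79.1% in the other mutants and 48.9% in WT (3.30). In miR-708, from an intron of Tenm4, the 5p share was 75.4% in K566A, 40.03% in R792A_C793A, 47.5% in Q548A, 22.9% in GKT_GKGT, 33.2% in PGKTP_AAAAA and 32.3% in WT (2.69), and K566A was the highest.

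The copies of miR-30c share their 5p arm and differ on the 3p side, where the seed is the same.
miR-30c-5p: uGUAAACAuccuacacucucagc
miR-30c-1-3p: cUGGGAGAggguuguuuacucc
miR-30c-2-3p: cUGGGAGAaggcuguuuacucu
The 5p share of miR-30c-1 was 45.9% in K566A, 94.2% in R792A_C793A, 95.5% in Q548A, 68.4% in GKT_GKGT, 91.8% in PGKTP_AAAAA and 93.7% in WT (-4.14). That of miR-30c-2 was 29.4% in K566A, 60.9% in R792A_C793A, 66.5% in Q548A, 30.3% in GKT_GKGT, 61.9% in PGKTP_AAAAA and 63.1% in WT (-2.04). Both 3p arms begin with C, and GKT_GKGT was the library nearest to K566A in both. As the 5p reads of both copies are the same counts, these are not 2 separate measurements of that arm. The 5p share of miR-200a was 62.1% in K566A, 42.9% in R792A_C793A, 18.7% in Q548A, 78.0% in GKT_GKGT, 43.4% in PGKTP_AAAAA and 29.1% in WT (1.99), so GKT_GKGT and not K566A was the highest. That of miR-200b, whose 5p arm shares the seed AUCUUAC, was 42.9% in K566A and 57.1% in WT and was not called (-0.83). miR-196a-1 was at 65.7% in K566A and 40.4% in WT (1.499), with Q548A close by at 62.8%.

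Of the hairpins with the largest losses of 5p, miR-744 combined a fall of its 5p arm with a rise of its 3p arm (3.51 in log2 CPM ratio).
miR-744-5p: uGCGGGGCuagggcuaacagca
miR-744-3p: cUGUUGCCacuaaccucaaccu
The 5p share was 91.9% in K566A and at least 98.6% in the 5 other Ago2 libraries, with 99.9% in WT (-6.79, interval -6.96 to -6.62). In miR-1934 the 5p share was 26.2% in K566A, 72.7% in R792A_C793A, 95.4% in Q548A, 76.5% in GKT_GKGT, 42.1% in PGKTP_AAAAA and 88.5% in WT (-4.44). In miR-125a, a relative of the lin-4 miRNA that overlaps an exon of Spaca6, it was 73.4% in K566A and between 97.7 and 99.1% in the others, with 98.3% in WT (-4.39). K566A was lowest for all 3. miR-145, with 2 counts of 5p and 1811 of 3p in K566A against 1286 and 393 in WT, had the largest change of all (-11.53, interval -14.58 to -9.66). miR-126, at 0.540% in K566A and 9.26% in WT (-4.23), had its 3p arm higher (3.23 in log2 CPM ratio). Its 5p arm (-0.998) was not called by CPM but was called lower with median-of-ratios scaling (-1.91). In miR-130a (1 count of 5p in K566A), miR-143 (5 counts) and miR-302b (0 counts, with the 95% interval of the log2 odds ratio below -3.73) the 5p arm made up at most 2.19% of counts in WT.

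Gains of 5p were led, among hairpins with both arms counted, by miR-455 of an intron of Col27a1 and by 3 hairpins of the Dlk1-Dio3 region, shown with their arms.
miR-455-5p: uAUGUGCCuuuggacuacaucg
miR-455-3p: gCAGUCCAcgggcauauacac
miR-667-5p: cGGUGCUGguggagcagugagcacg
miR-667-3p: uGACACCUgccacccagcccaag
miR-411-5p: uAGUAGACcguauagcguacg
miR-411-3p: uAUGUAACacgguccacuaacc
miR-154-5p: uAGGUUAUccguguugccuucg
miR-154-3p: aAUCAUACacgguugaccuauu
The 5p share of miR-455 was 98.3% in K566A, 63.5% in R792A_C793A, 76.6% in Q548A, 57.9% in GKT_GKGT, 96.3% in PGKTP_AAAAA and 57.6% in WT (5.45). That of miR-667 was 91.7% in K566A, 42.9% in R792A_C793A, 21.6% in Q548A, 78.7% in GKT_GKGT, 73.5% in PGKTP_AAAAA and 22.3% in WT (5.27). K566A was highest in both, and in miR-455 PGKTP_AAAAA was close to it. In miR-411 the 5p share was 99.1% in K566A, between 66.6 and 88.3% in the other mutants and 77.2% in WT (4.97), and in miR-154 it was 96.3% in K566A, 85.7% in R792A_C793A, 62.2% in Q548A, 38.9% in GKT_GKGT, 44.6% in PGKTP_AAAAA and 45.8% in WT (4.96). In miR-411 both arms begin with U, so their first base does not set them apart. The remaining rises rest on few counts of 3p in WT and none in K566A: miR-34c (55 in WT), let-7i (30 in WT) and let-7g (61 in WT). Their 95% intervals of the log2 odds ratio began at 4.16 for miR-34c, 2.82 for let-7i and 2.75 for let-7g. miR-300 had 12 counts of 5p in K566A and 8 in WT.

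Within hairpins, where library size cancels, the first bases of the arms ordered the changes less clearly than abundance did. Over U-first and A-first pairs the median change in favour of the U-first arm was 0.25 (66 hairpins). Over U-first and C-first pairs it was -0.12 (63), and over U-first and G-first pairs -0.73 (35). In hairpins with at least 100 counts in each library these medians were -0.04 (51), -0.08 (52) and -0.78 (26). For C-first over G-first arms the median change was 2.63 (18 hairpins), or 1.35 in the 8 with at least 100 counts in each library. For A-first over G-first arms it was 0.66 (20 hairpins), or 0.34 in the 12 with that many counts. The U-first arm thus lost to the G-first arm in the median, opposite to the order of their abundance ratios, and the quartiles of that change spanned -1.89 to 2.05. In 99 hairpins the 5p arm has more A or U than the 3p arm in its first 4 bases. Their median change in log2(5p/3p) was -0.40, and that of the 117 with fewer was 0.22. With at least 100 counts in each library the medians were -0.28 (73 hairpins) and -0.12 (86 hairpins), so their signs no longer differed. These medians are small beside the median size of the change of 1.69.

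K566A was also set directly against other mutants, without WT. Over Q548A, which changes another residue of the MID domain, 159 miRNAs (47.2%) were higher and 66 (19.6%) lower, with a median of 0.98, and 149 hairpins (37.1%) were called. Over R792A_C793A, a pair of changes in the PIWI domain, 129 (38.3%) were higher and 72 (21.4%) lower, with a median of 0.52, and 34.1% of hairpins were called. The differences of K566A were thus about as many against Q548A as against WT, where 160 were higher, 66 lower and 37.8% of hairpins called. Against R792A_C793A fewer miRNAs were called higher and fewer hairpins called, while slightly more miRNAs were lower. G-first miRNAs lay 1.81 below the median of all with a sequence against Q548A and 1.09 below it against R792A_C793A, and U-first ones 0.26 and 0.43 above it. C-first miRNAs lay 0.67 and 0.36 above it, so U-first miRNAs were not the highest class in the comparison with Q548A. All 3 comparisons share the K566A library, so traits of the library and of the mutation cannot be told apart.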

How the data were processed

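Ago2-bound small RNAs were counted per miRNA locus in 7 libraries, 1 per group: 5 mutants, an empty control and wild type. The deposited values are raw counts, not normalized. CASAVA 1.8.2, TopHat2 2.0.9 and build mm9 are named in the submitters' processing notes; which program counted the reads, with which annotation, strand setting and rule for reads of several matches, is given in none of the sources used here. There were 0 columns of other samples, and 116 rows held no count at all.

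Each mature name was counted by its highest locus (55 of 64 names with counts at several loci were equal at all of them), and names equal within 1% or 3 counts in every library, if 200 or more in sum, were merged, which dropped 9 names. CPM used the total as library size. Intervals of CPM ratios were exact conditional 95% intervals; those of 5p/3p odds ratios were exact conditional, or Woolf's where all 4 counts reached 500. Hairpins were a 5p and a 3p locus on 1 chromosome with starts within 150 nt and 100 or more counts summed over 6 Ago2 libraries. Changes in log2(5p/3p) used a pseudocount of 0.5. No p-value was computed, as there is 1 library a side. RefSeq sequences (GRCm38.p6) matched 781 mature names, 745 by name and 36 through a synonym; a first base is that of the RefSeq sequence, not of a read. Coordinates are mm9 as deposited; host genes were found by name in GENCODE M21, with no coordinates taken.

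The members and lists were chosen with earlier results of these data known. Named were the 10 most abundant miRNAs of each library, the 10 largest rises and falls among called miRNAs averaging at least 100 CPM over both libraries, up to 4 abundant members and the extremes of each list, the 8 largest called arm changes each way with at least 500 counts in each library, and the 8 most abundant hairpins whose major arm differed. Other genes named in the Dlk1-Dio3, marker and seed groups, and those above 10% in the empty control, were chosen after their values were seen. Python 3.11.15, scipy 1.17.1, numpy 2.4.6, pandas 2.3.3 and matplotlib 3.10.9 were used, and the scripts were checked on simulated counts. Alternatives were other library sizes, count filters, thresholds, pseudocounts, treatment of loci and equal names, and subtraction of the empty control.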

Additional observations from a re-analysis of the deposited data

How the results depend on the processing

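The number of miRNAs higher and lower in K566A (160 and 66) depended on the library size and the filter. It was 105 and 107 with median-of-ratios scaling, which moved every log2 ratio by -0.91, and 86 and 116 with miR-292-5p left out of the total, which moved it by -1.11. It was 272 and 115 without a filter on low counts, 76 and 32 at a mean of at least 100 CPM, where fewer miRNAs were tested, and 96 and 42 at a 4-fold threshold. With an odds ratio of 4 required, 44 hairpins had a higher and 38 a lower 5p share. The muscle, liver, skin and endocrine list lay at -0.29 relative to all tested miRNAs at a mean of at least 100 CPM. With median-of-ratios scaling, an alternative added after the data were seen, K566A over Q548A had 87 miRNAs higher and 111 lower, and K566A was the lowest library at 117. The other 70 values of lists, first bases, arms and comparisons stayed within their limits under the alternatives run. Not all of them kept their direction. The median change of U-first over A-first arms was 0.25 over all tested hairpins and -0.04 with at least 100 counts in each library. Among 35 named miRNAs and 24 named hairpins no called direction changed, and miR-292-3p (0.97, not called) was at -0.14 with miR-292-5p left out of the total; miR-293-3p and miR-541-5p lost their call under both rescalings (0.86 and 0.78 with median-of-ratios scaling), and miR-183-5p gained one (-1.29).

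No paired analysis was possible because each genotype has 1 library; with no replicates there was none to leave out. Depth limits K566A most: a 0 there allows 0.201 CPM, against 0.0316 CPM in WT, so falls of scarce miRNAs and arms are bounded less closely than rises. The lowest K566A values are also those to which the empty control comes closest.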
